A study of Mus musculus with 6 samples.

Results

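The 49 genes described here encode the enzymes of glycolysis, of the pentose phosphate pathway, and of pyruvate oxidation with the tricarboxylic acid (TCA) cycle. They were chosen by name, with earlier results of these data known. Each was found once in the deposited table of 56884 genes: 23 belong to glycolysis with lactate export and glycogen, 6 to the pentose phosphate pathway, and 20 to pyruvate dehydrogenase, the TCA cycle and itaconate synthesis. RNA sequencing had been carried out, per the labels, on mouse neutrophils sorted from bone marrow as CD101+ Ly6G+ mature cells and kept in culture, 3 libraries with DKK1 and 3 without it (control). DKK1 (Dickkopf-1) is a secreted antagonist of Wnt signalling. The sources used here do not state the strain, the age, the dose of DKK1 or the time in culture. They also do not say whether the 3 libraries of each condition are separate animals or repeats of 1 preparation, so the spread behind every p-value may be technical.

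The libraries labelled DKK1 went against the labelled cell type on both sorting markers. Cd101 had 13 reads in the DKK1 libraries together, against 14389 in the control libraries, and Ly6g had 19 reads in the DKK1 libraries, against 3774 in the control libraries. These data do not show that both groups held the same kind of cell. Here "higher", "lower", "rose" and "fell" compare the libraries labelled DKK1 with those labelled control, and a change in the cells sampled and a change within cells cannot be told apart.

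Glycolysis splits glucose into pyruvate in the cytosol and yields ATP without oxygen. Neutrophils are known for relying on it, having few mitochondria, and for feeding it from stored glycogen. The pentose phosphate pathway draws off glucose-6-phosphate to make NADPH, which the neutrophil oxidase uses, and its sugars return to glycolysis through a non-oxidative branch. The TCA cycle oxidises the acetyl group that pyruvate dehydrogenase makes from pyruvate, and activated macrophages and neutrophils divert its intermediate aconitate to itaconate.

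Of the 47 genes that could be tested, 20 were higher and 18 lower with DKK1, and 9 did not pass. Across all 16265 genes tested, 71.2% passed, 35.1% higher and 36.1% lower, so the share of these enzymes that passed is near that of all genes. Within glycolysis 12 were higher, 7 lower and 3 did not pass, with a median log2 change of 0.44 against -0.03 over all tested genes. For the 25 further glycolysis genes tested, given below, the median was -0.77. Of the 6 pentose phosphate genes 4 were lower and 2 did not pass (median -0.98). The count of higher ones was 0 by limma, also at an unadjusted p of 0.05, and 0 by edgeR and DESeq2. Of the TCA group 8 were higher and 7 lower, while 4 missed the threshold. Its median was 0.11, and it changed sign without DKK1 library 2 (-0.024) and was 0.02 without control library 2. The test was limma on log2(normalized count + 1) with Benjamini-Hochberg adjustment over all tested genes, and a gene passed at an adjusted p under 0.05. On this scale the change of a low gene is understated. In each of the 38 genes that passed, the 3 DKK1 libraries lay wholly on one side of the 3 control libraries, as they did in 73.9% of all tested genes. Ldhb and Pdk4 were too low to test.

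**Figure D1:**
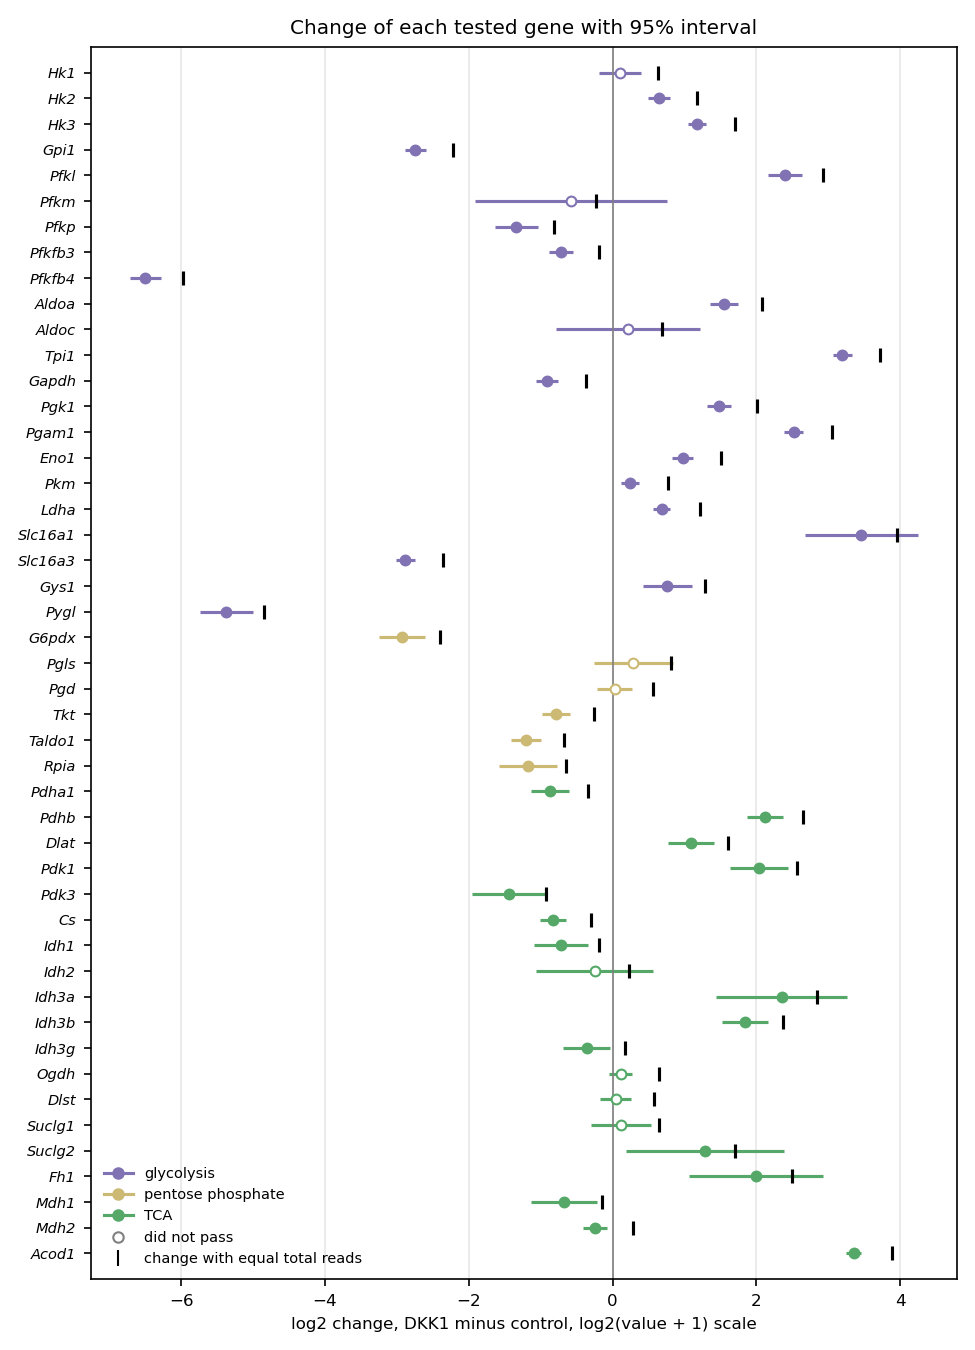
Log2 change of each tested gene, DKK1 minus control, on the log2(value + 1) scale (horizontal axis), with its 95% limma interval. Filled points passed at an adjusted p under 0.05, open points did not, and black ticks give the change after scaling libraries to equal total reads. The range runs from -6.50 for Pfkfb4 to 3.46 for Slc16a1, and the 3 pathways hold genes on both sides of 0 except that no pentose phosphate gene that passed on the deposited scale lies above it.

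The scale between the groups bears on each small change. The summed normalized counts were 6738824 ± 336773 in DKK1 libraries and 9729307 ± 39771 in control libraries (SD, n = 3 each). Scaling to equal total reads instead moved the median of all tested genes by 0.47 on the log2 scale, and calls of smaller changes moved with it. Of the glycolysis genes 13 were then higher and 6 lower, of the pentose phosphate genes 2 higher and 3 lower, and of the TCA group 12 higher and 3 lower, against 43.6% higher and 29.2% lower among all tested genes. Read totals recovered from the values ranged from 5188116 to 8749228 in DKK1 libraries and from 8688911 to 9851961 in control libraries. DKK1 library 2, the shallowest, lay below the other DKK1 libraries for 23 of the 36 genes whose DKK1 mean reached 100, and above them for 9. Libraries of a group differed beyond counting noise, with a chi-square per degree of freedom of 12.5 to 13.6 between DKK1 library 2 and the other DKK1 libraries and 2.19 to 2.99 in the other pairs.

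The wider marker lists also moved with the groups. Of 15 neutrophil markers 14 were lower with DKK1 and 1, Camp, did not pass (with equal total reads it was higher). Their summed normalized count was 3850 to 4544 in DKK1 libraries and 712332 to 737889.6 in control libraries. Of 15 monocyte and macrophage markers 5 were higher, 7 lower and 3 did not pass, summing to 17606 to 18659.9 in DKK1 libraries and 7928 to 8135 in control libraries. With equal total reads the balance of that list turned, with 6 higher and 4 lower: Csf1r, C1qb and C1qc no longer passed and Fcgr1 was higher. Those higher under either scale were Adgre1, Cd68, Cd14, Ms4a7 and Cx3cr1, while C1qa stood at 0 reads in DKK1 libraries and Ccr2 at 1 read. Of 6 B cell markers 5 were lower (2 with equal total reads), summing to 41.2 to 112 in DKK1 libraries and 1476 to 1595 in control libraries. Of 6 erythroid markers 4 were lower (1 with equal total reads), summing to 300.5 to 1496 in DKK1 libraries and 1592 to 1735 in control libraries. Of 6 T and NK cell markers 2 were lower under either scale, Cd3g and Cd3d (2 reads in DKK1 libraries and 162 in control libraries). The other 4 were too low to test. The list summed to 0 to 2.98 in DKK1 libraries and 45.3 to 79.3 in control libraries. Cd3g, Trbc2 and Nkg7 were at 0 reads in DKK1 libraries and Cd3e, Trac and Trbc2 in control libraries. Of 6 eosinophil, basophil and mast cell markers 2 were higher and 1 lower, and they summed to 81.0 to 253 in DKK1 libraries and 321 to 325 in control libraries. The part of these shifts in the changes described below was not tested, and in such bulk samples fewer cells of a type and less RNA per cell cannot be told apart.

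The 5 promoters below belong to the genes with the largest rise and the largest fall in each pathway, where the pathway had one. They are shown because these genes mark the ends of the range: the lactate transporter gene Slc16a1 and the regulator gene Pfkfb4 in glycolysis, the entry enzyme gene G6pdx in the pentose phosphate pathway, and the itaconate enzyme gene Acod1 and the kinase gene Pdk3 in the TCA group. Each runs 5′ to 3′ on the gene's strand, from 250 bases before to 50 after a RefSeq start (GRCm38.p6). Capitals mark matches, on either strand, to the GC box GGGCGG, the CCAAT box, the hypoxia response core ACGTG, the E-box CACGTG (which contains that core), the AP-1 site TGANTCA, the antioxidant response core TGACNNNGC or the NF-kappaB consensus.
Slc16a1 (chr3:104638414-104638713, plus strand): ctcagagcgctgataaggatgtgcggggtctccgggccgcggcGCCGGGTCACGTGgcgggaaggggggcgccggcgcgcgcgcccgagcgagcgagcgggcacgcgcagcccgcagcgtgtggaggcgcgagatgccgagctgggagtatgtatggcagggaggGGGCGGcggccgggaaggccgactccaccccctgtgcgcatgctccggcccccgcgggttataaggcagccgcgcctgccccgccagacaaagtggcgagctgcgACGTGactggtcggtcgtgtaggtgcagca
Pfkfb4 (chr9:108991652-108991951, plus strand): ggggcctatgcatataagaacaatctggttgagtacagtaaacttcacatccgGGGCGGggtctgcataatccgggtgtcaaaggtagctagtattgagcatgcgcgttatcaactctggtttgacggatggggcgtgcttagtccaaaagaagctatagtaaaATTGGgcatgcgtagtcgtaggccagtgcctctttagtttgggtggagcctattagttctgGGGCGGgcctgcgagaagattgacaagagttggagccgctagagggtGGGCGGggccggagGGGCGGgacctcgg
G6pdx (chrX:74428831-74429130, minus strand): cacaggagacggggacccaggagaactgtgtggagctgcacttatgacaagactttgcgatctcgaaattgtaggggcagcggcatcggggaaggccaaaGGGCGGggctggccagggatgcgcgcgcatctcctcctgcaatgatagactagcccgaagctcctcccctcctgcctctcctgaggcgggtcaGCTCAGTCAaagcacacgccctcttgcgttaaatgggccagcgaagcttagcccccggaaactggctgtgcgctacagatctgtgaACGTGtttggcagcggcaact
Acod1 (chr14:103046762-103047061, plus strand): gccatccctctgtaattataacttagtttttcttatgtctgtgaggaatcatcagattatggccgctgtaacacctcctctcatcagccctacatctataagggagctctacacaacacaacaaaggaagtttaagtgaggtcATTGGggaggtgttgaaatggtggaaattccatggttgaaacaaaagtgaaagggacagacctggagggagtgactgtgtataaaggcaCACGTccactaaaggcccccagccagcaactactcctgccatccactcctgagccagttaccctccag
Pdk3 (chrX:93832101-93832400, minus strand): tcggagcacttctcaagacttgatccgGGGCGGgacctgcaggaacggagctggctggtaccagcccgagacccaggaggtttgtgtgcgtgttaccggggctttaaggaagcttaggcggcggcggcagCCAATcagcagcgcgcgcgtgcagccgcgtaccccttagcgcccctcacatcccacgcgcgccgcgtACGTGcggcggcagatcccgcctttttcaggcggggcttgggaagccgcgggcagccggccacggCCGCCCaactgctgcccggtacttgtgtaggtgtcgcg

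The promoter of Pfkfb4 held 4 GC boxes and 1 CCAAT box, and that of Pdk3 held 2 GC boxes, 1 CCAAT box and 1 hypoxia core. The Slc16a1 promoter had 1 GC box, 1 antioxidant core and 3 matches to the hypoxia core, 2 of which were its E-box read on either strand. The G6pdx promoter had 1 GC box, 1 hypoxia core and 1 antioxidant core, and that of Acod1 1 CCAAT box and 1 hypoxia core. RefSeq promoters matched 48 of the 49 genes, with 68 windows in all. The hypoxia core lay in 30 of these 68 (44.1%) against 19.6% of the 32851 promoters scanned, which left out chromosome 18. The GC box lay in 44 (64.7%) against 35.7%. The CCAAT box lay in 45.6% against 37.4% of those scanned, the E-box in 10.3% against 7.15%, and the AP-1 site in 1.47% against 7.81%. The antioxidant core lay in 13.2% against 12.4% and the NF-kappaB consensus in 11.8% against 8.46%. A match is a description of letters, not of a bound site, and windows of the same gene can overlap.

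Hexokinases phosphorylate glucose and so trap it in the cell, and most hexokinase transcripts in either group were of Hk3. Hk3, the isoform of myeloid cells, had normalized counts of 9835, 10819 and 9688 in DKK1 libraries 1 to 3 and 4333, 4561 and 4481 in control libraries 1 to 3. All 3 DKK1 libraries lay above all 3 control libraries, 2.27-fold on the mean (log2 change of 1.18, SE 0.056, limma adjusted p = 8.45e-08). Hk2, the isoform that responds to growth signals, had 1178, 1196 and 1176 in DKK1 libraries, against 759.9, 791 and 716 in control libraries. This was a rise of 1.57-fold with no overlap. Hk1, the widely expressed isoform, had 892, 624 and 825 in DKK1 libraries, against 689.6, 702 and 768 in control libraries, with the groups overlapping (log2 change of 0.10, 95% interval -0.19 to 0.39, limma adjusted p = 0.502). Hk1 was called higher without DKK1 library 2 (log2 change 0.25) and with equal total reads (0.63). Per kilobase of transcript, Hk3 made up 88.7% ± 1.32 of hexokinase transcripts with DKK1 and 81.9% ± 0.205 in control.

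The next step fell: Gpi1, the isomerase that makes fructose-6-phosphate, averaged 1096 ± 80.1 in DKK1 libraries and 7332 ± 129 in control libraries (± gives the SD, n = 3 each, here and below), 6.69-fold lower. The phosphofructokinases, which commit the sugar to glycolysis, exchanged places. Pfkl, the liver isoform, had 1843, 1552 and 1698 in DKK1 libraries, against 325, 354 and 284 in control libraries, a rise of 5.29-fold (log2 change of 2.40, SE 0.10, limma adjusted p = 4e-08). Pfkp, the platelet isoform, had 218, 312 and 233 in DKK1 libraries, against 644, 611 and 656 in control libraries, 2.50-fold lower. Neither pair of groups overlapped. Exons of Pfkp share 748 bases with Pitrm1 on the opposite strand, which averaged 439.5 in DKK1 libraries and 7.53 in control libraries, and since the sources used here do not say whether counting used the strand, reads of such overlaps cannot be told apart. The muscle isoform Pfkm averaged 1.68 ± 0.980 in DKK1 libraries and 3.28 ± 2.25 in control libraries and did not pass. The per-kilobase share of Pfkl among the 3 isoforms was 90.3, 84.5 and 89.0% in DKK1 libraries, against 35.7, 39.0 and 32.4% in control libraries. A share within a library does not depend on the scale between libraries, and the gap of 52.2 percentage points had an exact two-sided permutation p = 0.1, the smallest that 3 against 3 libraries allow (adjusted p = 0.133 over 16 shares).

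The bifunctional enzymes Pfkfb3 and Pfkfb4 set the level of fructose-2,6-bisphosphate, the strongest activator of phosphofructokinase, and both fell on the deposited scale, Pfkfb3 not with equal total reads. Pfkfb4 had 46.2, 54.9 and 55.5 in DKK1 libraries, against 5019, 4544 and 4836 in control libraries. This 91.9-fold difference was the largest fall among the 49 genes (log2 change of -6.50, SE 0.10, limma adjusted p = 8.69e-11). Pfkfb3, the inducible isoform with high kinase activity, had 1221, 1088 and 1267 in DKK1 libraries, against 2007, 1909 and 1949 in control libraries, 1.64-fold lower without overlap (with equal total reads a log2 change of -0.19, limma adjusted p = 0.0914). Per kilobase Pfkfb4 was 5.71% ± 0.774 of the pair with DKK1 and 77.1% ± 0.468 in control. Pfkfb4 lies on chromosome 9 from 108991778 to 109032228 (plus strand, GENCODE M21 on GRCm38), a protein-coding gene with 14 exons in its longest transcript.

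**Figure D2:**
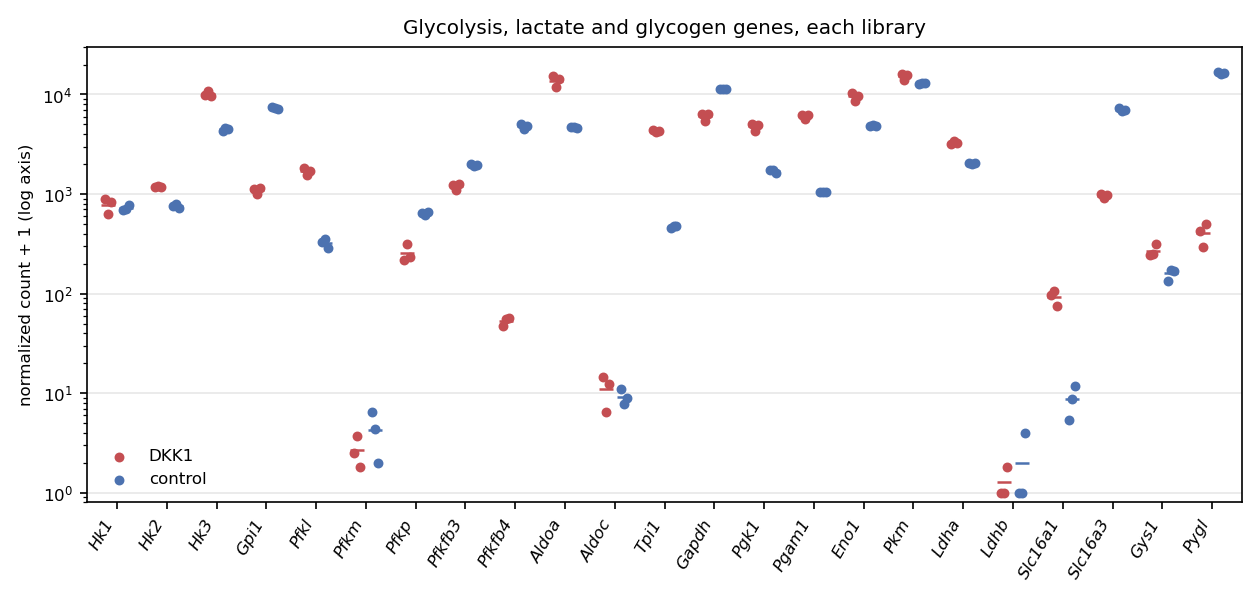
Normalized count plus 1 (log axis) of each glycolysis, lactate and glycogen gene in every library. Points are the 3 DKK1 (left) and 3 control (right) libraries and bars their means. Pfkfb4 and Pygl show the widest gaps with DKK1 below control, and Slc16a1, Tpi1 and Pgam1 the widest with DKK1 above.

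Of the 6 genes for the steps from triose phosphate to pyruvate, 5 rose and 1, Gapdh, fell, under either scale. Triosephosphate isomerase (Tpi1), which interconverts the triose phosphates, had 4427, 4213 and 4287 in DKK1 libraries, against 459, 477 and 473 in control libraries. Its rise of 9.17-fold had a log2 change of 3.19 (SE 0.059, limma adjusted p = 2.47e-10). Phosphoglycerate mutase (Pgam1) had 6149.8, 5686 and 6272 in DKK1 libraries, against 1038, 1055 and 1057 in control libraries, 5.75-fold higher. Aldolase A (Aldoa), which cuts the sugar into trioses, averaged 13807 ± 1826 in DKK1 libraries and 4681 ± 84.2 in control libraries, a rise of 2.95-fold. Phosphoglycerate kinase (Pgk1), which makes the first ATP of the pathway, averaged 4778 ± 390.1 in DKK1 libraries and 1709 ± 68.7 in control libraries, 2.80-fold higher. None of these genes had overlapping groups. Enolase 1 (Eno1) rose 1.98-fold, to 9558 ± 801 in DKK1 libraries, against 4837 ± 80.7 in control libraries. The brain form of aldolase, Aldoc, stood at 10.1 ± 4.12 in DKK1 libraries and 8.16 ± 1.61 in control libraries and did not pass.

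Glyceraldehyde-3-phosphate dehydrogenase (Gapdh), the step that reduces NAD, went the other way. It had 6330.1, 5403 and 6405 in DKK1 libraries, against 11229, 11268 and 11386 in control libraries, 1.87-fold lower, and it stayed lower with equal total reads (log2 changes -0.91 and -0.37). Gapdh is often used as a constant gene, and here its groups did not overlap. The annotation held 177 near-identical copies of Gapdh (at least 90% identity over 300 bases), which took 3.51 to 4.31% of the counts of Gapdh and its copies together in DKK1 libraries and 5.49 to 6.24% in control libraries. For Eno1 such copies took at most 1.58% in any library, and for Tpi1 their counts were 0. Pyruvate kinase (Pkm), the last step, had 16161, 13955 and 15553 in DKK1 libraries, against 12729, 12900.3 and 12931 in control libraries. Its rise of 1.18-fold had no overlap (limma adjusted p = 0.00425). Pkm did not pass by DESeq2 (adjusted p = 0.0597) or by limma without its trend and robust options (limma adjusted p = 0.0975). Exons of Pkm share 767 bases with Gm49759 on the same strand, which averaged 2213 in DKK1 libraries and 1845 in control libraries. As a level per kilobase of transcript, Aldoa stood highest of the 49 genes with DKK1, at 8913 normalized counts per kilobase, followed by Acod1 at 6685 and Pkm at 6259. In control the highest were Taldo1 at 8787, Gapdh at 7954 and Pygl at 5489.8 normalized counts per kilobase.

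Of the lactate transporter genes, Slc16a3 fell and Slc16a1 rose. Lactate dehydrogenase A (Ldha), which turns pyruvate into lactate, had 3183, 3376 and 3244 in DKK1 libraries, against 2048, 2002 and 2047 in control libraries, 1.61-fold higher. The B subunit Ldhb had 1 read in DKK1 libraries and 3 in control libraries. Slc16a3 (MCT4), the transporter with which glycolytic cells export lactate, had 994, 904 and 975 in DKK1 libraries, against 7298, 6841 and 7056 in control libraries, 7.38-fold lower (log2 change of -2.88, SE 0.060, limma adjusted p = 4.91e-10). Slc16a1 (MCT1), which carries lactate in either direction, had 94.7, 104 and 73.5 in DKK1 libraries, against 4.39, 7.82 and 10.8 in control libraries. That is 11.8-fold higher (log2 change of 3.46, SE 0.35, limma adjusted p = 1.56e-05), yet Slc16a3 remained 91.5% ± 1.64 of the pair per kilobase with DKK1, against 99.9% ± 0.0458 in control. Both pairs of groups were apart, in opposite directions.

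Of the pair of glycogen genes, Pygl fell and Gys1 rose. Pygl, the glycogen phosphorylase of liver and leukocytes, had 422, 293 and 499 in DKK1 libraries, against 16659, 16038 and 16579 in control libraries, 40.6-fold lower (log2 change of -5.37, SE 0.16, limma adjusted p = 4.43e-09). Pygl made up 0.495% of the summed counts of the glycolysis group with DKK1 and 19.6% in control. Glycogen synthase (Gys1) averaged 269 ± 38.8 in DKK1 libraries and 158 ± 22.3 in control libraries, a rise of 1.70-fold. Exons of Gys1 share 310 bases with Ruvbl2 on the opposite strand, which averaged 259 in DKK1 libraries and 80.2 in control libraries.

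A list of 32 further genes of glycolysis and glycogen metabolism had 25 members that could be tested. Among them 5 were higher, 14 lower and 6 did not pass, against 35.1% higher and 36.1% lower among all tested genes. Their median log2 change was -0.77, opposite in sign to that of the glycolysis genes above (0.44). With equal total reads 7 were higher and 10 lower (median -0.25), against 43.6% higher and 29.2% lower among all tested genes. Eno2, among the higher ones, and Fbp1, among the lower, had values of at least 1 in 1 group only. Gbe1, the glycogen branching enzyme, rose most clearly, to 3556 ± 159 in DKK1 libraries, against 280.5 ± 16.9 in control libraries. Basigin (Bsg), the chaperone that carries monocarboxylate transporters to the membrane, rose 4.77-fold to 1732 ± 46.2 in DKK1 libraries, against 363 ± 31.2 in control libraries. Enolase 2 (Eno2), the neuronal isoform, had 1805 reads in DKK1 libraries and 1 in control libraries, a ratio of 1656 with a 95% exact counting interval of 297 to 65427. Those with the clearest falls were the ADP-dependent glucokinase gene Adpgk, UDP-glucose pyrophosphorylase (Ugp2), which makes the glucose donor for glycogen, and the phosphorylase kinase subunit gene Phkg2. Adpgk averaged 264 ± 48.8 in DKK1 libraries and 4407 ± 98.3 in control libraries, 16.7-fold lower. Ugp2 averaged 574 ± 42.2 with DKK1 and 1751 ± 72.7 in control, and Phkg2 averaged 104 ± 24.1 with DKK1 and 494 ± 9.18 in control.

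The entry to the pentose phosphate pathway fell most. Glucose-6-phosphate dehydrogenase (G6pdx), which commits glucose-6-phosphate to the pathway and makes its first NADPH, had 275, 232 and 363 in DKK1 libraries, against 2251, 2108 and 2179 in control libraries. It was 7.51-fold lower (log2 change of -2.93, SE 0.14, limma adjusted p = 1.01e-07). Its exons share 418 bases with Ikbkg on the opposite strand, which moved the other way, averaging 6755 in DKK1 libraries and 673 in control libraries. 6-Phosphogluconate dehydrogenase (Pgd), the second NADPH step, had 10402, 7695 and 10417 in DKK1 libraries, against 9408, 9023 and 9219.6 in control libraries. DKK1 library 2 lay below and the other DKK1 libraries above all control libraries, and the change did not pass (log2 change of 0.03, 95% interval -0.21 to 0.27, limma adjusted p = 0.81). Pgd passed as higher without DKK1 library 2 (log2 change 0.18) and with equal total reads (0.56). Lactonase (Pgls), the step between them, averaged 66.1 ± 17.4 in DKK1 libraries and 52.9 ± 6.59 in control libraries and did not pass, though it passed as higher with equal total reads (log2 change 0.81). Exons of Pgls share 776 bases with Niban3 on the same strand, which averaged 38.3 in DKK1 libraries and 14.2 in control libraries.

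All 3 genes of the non-oxidative branch were lower on the deposited scale, and Taldo1 and Rpia also with equal total reads. Taldo1 (transaldolase), which moves three-carbon units between sugars, had 5669, 4407 and 5589 in DKK1 libraries, against 11907, 12283 and 11715 in control libraries, 2.29-fold lower. Transketolase (Tkt), which moves two-carbon units, had 2485, 2133 and 2731 in DKK1 libraries, against 4217, 4129.9 and 4297 in control libraries, 1.72-fold lower, but with equal total reads it did not pass (log2 change of -0.26, limma adjusted p = 0.0523). Ribose-5-phosphate isomerase (Rpia) had 123, 90.7 and 147 in DKK1 libraries, against 272, 286 and 247 in control libraries. In each of the 3 genes the groups did not overlap, and DKK1 library 2 was the lowest. As a level per kilobase Taldo1 stood at 3834 normalized counts with DKK1, below Pgd at 4285, and at 8787 in control, above Pgd at 4155. Of 8 further genes around the pathway 7 could be tested, and 2 were higher and 4 lower under either scale. Among all tested genes 35.1% were higher and 36.1% lower, and 43.6% and 29.2% with equal total reads. Tktl1 and Shpk, among the lower ones, met the filter only through their control values, so their place in this count depended on the direction. Shpk had 3 reads in DKK1 libraries, all in library 2, and 25 in control libraries. Phosphoribosyl pyrophosphate synthetase 1 (Prps1) averaged 53.4 ± 11.0 in DKK1 libraries and 7.49 ± 4.04 in control libraries, and ribulose-phosphate epimerase (Rpe) averaged 274 ± 7.80 with DKK1 and 166 ± 16.6 in control. The endoplasmic reticulum enzyme H6pd fell to 103 ± 14.7 in DKK1 libraries, against 437 ± 29.0 in control libraries, and Prps2 to 8.79 ± 2.41 with DKK1, against 77.4 ± 22.2 in control. The transketolase-like gene Tktl1 had 0 reads in DKK1 libraries and 10 in control libraries, at least 3.63-fold lower against a floor of 3 reads over the group.

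**Figure D3:**
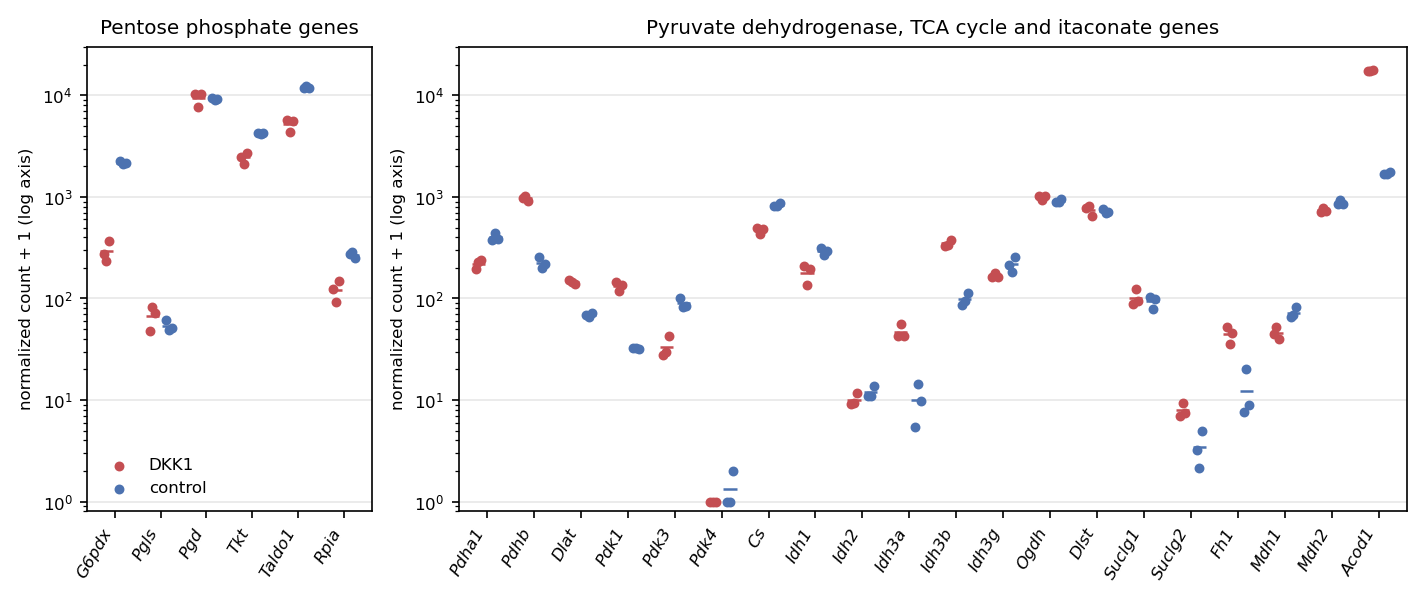
Normalized count plus 1 (log axis) of each pentose phosphate gene (left panel) and each gene of pyruvate dehydrogenase, the TCA cycle and itaconate synthesis (right panel). Points are the 3 DKK1 (left) and 3 control (right) libraries and bars their means. G6pdx lies lower with DKK1 while Pgd overlaps, and Acod1 lies above every other TCA gene.

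Acod1 had the largest change of the TCA group. It encodes aconitate decarboxylase, which makes itaconate from cis-aconitate in activated myeloid cells. Acod1 had 17389, 17252 and 17966 in DKK1 libraries, against 1694, 1677 and 1767 in control libraries, 10.2-fold higher (log2 change of 3.36, SE 0.048, limma adjusted p = 8.03e-11). It lies on chromosome 14 from 103046977 to 103056573, plus strand, and its exons overlap those of no other gene found in the deposited table. Of the summed counts of the 20 genes, Acod1 made up 76.5% with DKK1 and 25.7% in control.

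Subunits of the pyruvate dehydrogenase complex, which turns pyruvate into acetyl-CoA, did not move together. Pdhb, the beta subunit of its first enzyme, had 985, 1028 and 909 in DKK1 libraries, against 256, 199 and 217 in control libraries, 4.35-fold higher. Pdha1, the alpha subunit of the same enzyme, had 195, 228 and 238 in DKK1 libraries, against 376, 445 and 387 in control libraries, 1.83-fold lower. Its exons share 603 bases with Map3k15 on the opposite strand, which averaged 45.1 in DKK1 libraries and 1472 in control libraries, and the part of that overlap in the fall of Pdha1 was not tested. Dlat, the second enzyme, averaged 145 ± 7.82 in DKK1 libraries and 67.6 ± 3.11 in control libraries, a rise of 2.14-fold.

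Of the kinases that switch the complex off, Pdk1 and Pdk3 changed places. Pdk1, a known hypoxia target, had 145, 117 and 134 in DKK1 libraries, against 31.8, 31.3 and 30.5 in control libraries, 4.23-fold higher. Pdk3 had 26.8, 28.8 and 41.6 in DKK1 libraries, against 99.9, 81.5 and 83.7 in control libraries, 2.73-fold lower (log2 change of -1.44, SE 0.23, limma adjusted p = 0.000378). Pdk4, the isoform of fasting muscle, had no read in the DKK1 libraries and 1 read in control, in its library 3. The per-kilobase share of Pdk1 among Pdk1, Pdk3 and Pdk4 was 68.8, 62.3 and 56.7% in DKK1 libraries. In control libraries it was 11.5, 13.5 and 12.9%, with no overlap (exact two-sided permutation p = 0.1, adjusted p = 0.133 over 16 shares). Pdk2 was left out of this share. Per kilobase Pdk2 averaged 6.33 in control, where Pdk1 averaged 6.02, and 0 with DKK1.

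**Figure D4:**
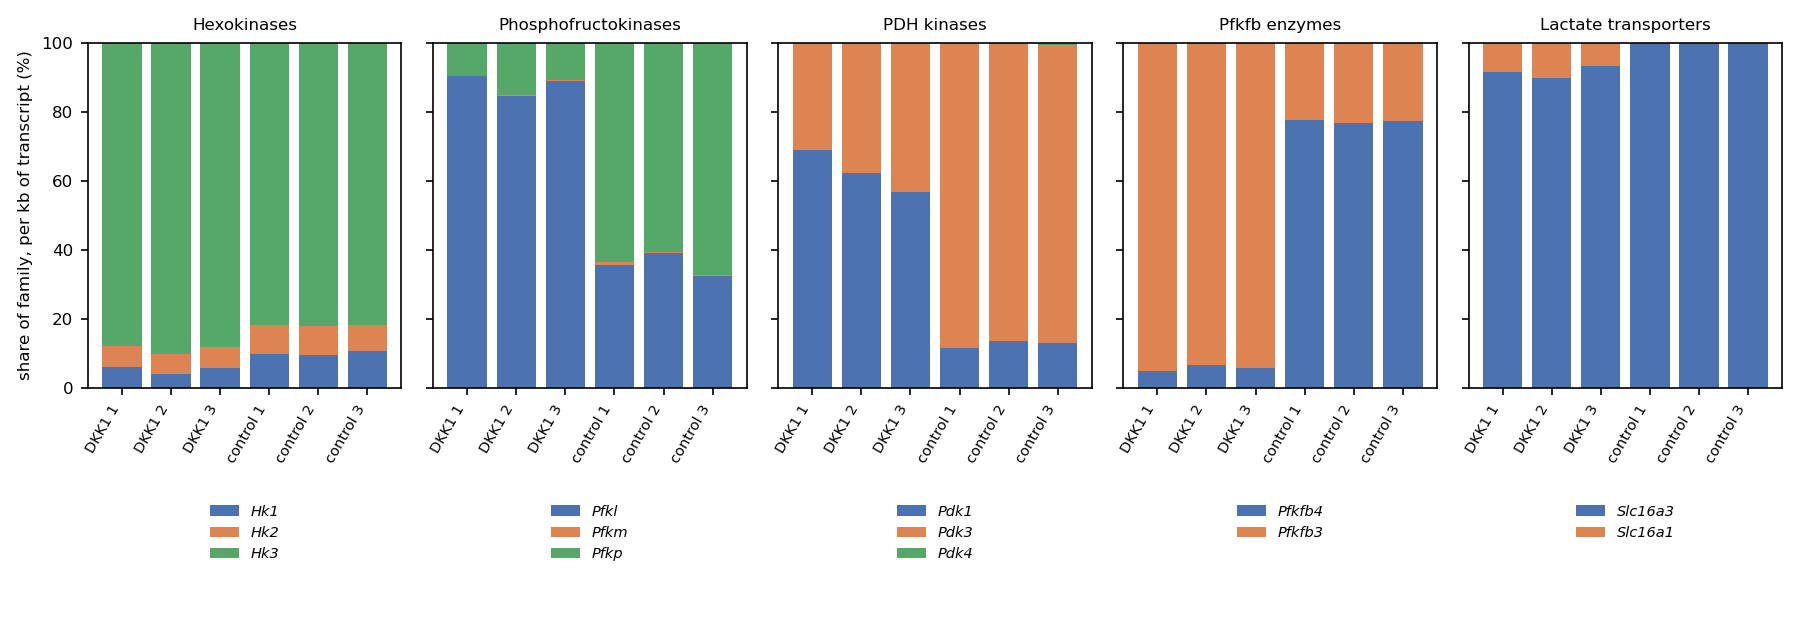
Share of each isoenzyme within its family in every library, from normalized counts per kilobase of the longest transcript (vertical axis, percent). Bars are the 3 DKK1 and then the 3 control libraries. The kinase family holds Pdk1, Pdk3 and Pdk4 and leaves out Pdk2. Pfkl averages 87.9% of phosphofructokinase transcripts with DKK1 and 35.7% in control, and Pfkfb4 averages 5.71% of the Pfkfb pair with DKK1 and 77.1% in control.

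Citrate synthase (Cs), which admits acetyl-CoA to the cycle, had 491, 434 and 480.1 in DKK1 libraries, against 805, 819 and 878 in control libraries, 1.78-fold lower, and it remained lower with equal total reads (log2 changes -0.83 and -0.30). The NAD-dependent isocitrate dehydrogenase, which has 3 kinds of subunit, was split. Its catalytic subunit Idh3a had 41.7, 54.9 and 41.6 in DKK1 libraries, against 4.39, 13.4 and 8.87 in control libraries, 5.19-fold higher, and Idh3b rose 3.59-fold to 348 ± 28.0 in DKK1 libraries, against 96.9 ± 14.8 in control libraries. The third subunit, Idh3g, averaged 167 ± 7.95 in DKK1 libraries and 216 ± 37.3 in control libraries. Its fall was at the edge of the threshold (limma adjusted p = 0.0469, range over the alternatives 0.0134 to 0.314). It was lost without DKK1 library 1 or 3 or control library 1 or 3, and its direction reversed with equal total reads (log2 change of 0.17). The NADP-dependent Idh1 of the cytosol had 208, 136 and 194 in DKK1 libraries, against 315, 269 and 289.7 in control libraries, 1.63-fold lower, and did not pass with equal total reads (limma adjusted p = 0.387). Its mitochondrial partner Idh2 had only 8.20, 8.24 and 10.6 in DKK1 libraries, against 9.88, 10.1 and 12.8 in control libraries, which overlapped.

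In the middle of the cycle Ogdh, Dlst and Suclg1 did not pass. Ogdh, the first enzyme of the oxoglutarate dehydrogenase complex, had 1019.6, 931 and 1012 in DKK1 libraries, against 893, 885 and 959 in control libraries (log2 change of 0.11, 95% interval -0.05 to 0.28, limma adjusted p = 0.18). Without DKK1 library 2 Ogdh passed as higher (log2 change 0.16). Dlst, the second enzyme of that complex, averaged 749 ± 86.5 in DKK1 libraries and 723 ± 29.3 in control libraries, and Suclg1, the alpha subunit of succinate-CoA ligase, averaged 101 ± 18.5 with DKK1 and 92.6 ± 12.7 in control. With equal total reads Ogdh, Dlst and Suclg1 were each called higher (log2 changes 0.64, 0.57 and 0.64). Suclg2, the GTP-forming beta subunit, was called higher from only 22 reads in DKK1 libraries and 7 in control libraries. That call was lost by edgeR (adjusted p = 0.127) and by DESeq2 (adjusted p = 0.201), and without any single library other than control library 3.

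At the end of the cycle, fumarase (Fh1) rose 3.91-fold, to 43.6 ± 8.62 in DKK1 libraries, against 11.2 ± 6.82 in control libraries. Mitochondrial malate dehydrogenase (Mdh2), which regenerates oxaloacetate, had 714, 773 and 729 in DKK1 libraries, against 848, 925 and 853 in control libraries. It was 1.18-fold lower on the deposited scale (log2 change of -0.24, limma adjusted p = 0.0137), called higher with equal total reads (log2 change of 0.29), and lost its call without control library 2. Cytosolic Mdh1 averaged 44.4 ± 5.91 in DKK1 libraries and 71.2 ± 9.23 in control libraries, a fall that did not pass with equal total reads or without control library 3.

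A list of 30 further genes of pyruvate metabolism and the TCA cycle had 26 that could be tested. Among them 10 were higher, 9 lower and 7 did not pass, near the shares of 35.1% higher and 36.1% lower among all tested genes. With equal total reads 15 were higher and 8 lower, against 43.6% higher and 29.2% lower among all tested genes. Pcx and Me1, among the higher ones, and Pdk2, among the lower, had values of at least 1 in 1 group only. Pdhx, which anchors the third enzyme in the pyruvate dehydrogenase complex, rose 11.6-fold to 133 ± 13.0 with DKK1, against 11.4 ± 2.71 in control. Pyruvate carboxylase (Pcx), which refills oxaloacetate, had 190 reads in DKK1 libraries and 1 in control libraries, a ratio of 174 with a 95% exact counting interval of 30.9 to 6919. The mitochondrial pyruvate carrier gene Mpc1 fell 4.43-fold to 272 ± 8.50 with DKK1, against 1206 ± 67.2 in control. The mitochondrial aspartate aminotransferase gene Got2 fell 4.77-fold to 213 ± 17.4 with DKK1, against 1015 ± 25.5 in control, and D2hgdh, which removes D-2-hydroxyglutarate, fell 14.7-fold to 11.9 ± 3.86 with DKK1, against 176 ± 24.7 in control. The 4 succinate dehydrogenase subunit genes, chosen after their values were seen, differed among themselves. Sdhc averaged 370.5 ± 46.8 in DKK1 libraries and 105 ± 19.9 in control libraries, and Sdhd averaged 288 ± 58.7 with DKK1 and 582 ± 26.5 in control. Sdha averaged 761 ± 16.4 with DKK1 and 729.9 ± 11.2 in control and Sdhb 355 ± 16.1 with DKK1 and 314 ± 9.49 in control, and neither passed on the deposited scale, while both were higher with equal total reads (log2 changes 0.59 and 0.71).

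The share of the 3 pathways together in all normalized counts was 1.94, 1.59 and 1.91% in DKK1 libraries. In control libraries it was 1.22, 1.21 and 1.22%. Such a share sets each library to the same total, as scaling to equal total reads does. The deposited totals were lower with DKK1 (6738824 ± 336773) than in control (9729307 ± 39771). A share that is higher with DKK1 is therefore not always a higher sum on the deposited scale. On that scale the sums of all 3 pathways together, and of glycolysis, overlapped between the groups. The pentose phosphate sum was lower, and the TCA sum higher, in every DKK1 library than in any control library. Glycolysis genes took 1.21% ± 0.129 with DKK1 and 0.859% ± 0.00349 in control. Without Pygl the ratio of these means was 1.74 in place of 1.41. TCA genes took 0.341% ± 0.0196 with DKK1 and 0.0686% ± 0.00159 in control, and without Acod1 0.0801% with DKK1 and 0.0510% in control. Pentose phosphate genes took 0.264% ± 0.0504 with DKK1 and 0.287% ± 0.00114 in control. As shares these groups overlapped, with DKK1 libraries at 0.291, 0.205 and 0.294%. No test was made of these sums.

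**Figure D5:**
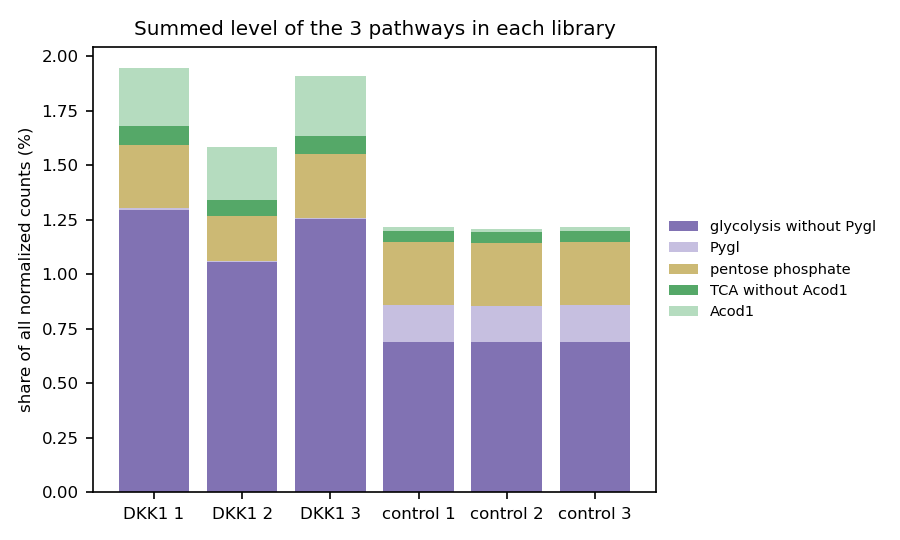
Summed share of the 3 pathways in all normalized counts of each library (vertical axis, percent), stacked, with Pygl and Acod1 drawn apart from the rest of their groups. The 3 DKK1 libraries (left) reach 1.94, 1.59 and 1.91%, all above the 1.21 to 1.22% of the control libraries. As sums on the deposited scale, which are not drawn, the groups overlap.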

How the data were processed

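Per the labels, total RNA of 6 libraries (3 DKK1, 3 control) was sequenced on Illumina instruments. The authors deposited 1 table of normalized counts per gene, a signal that is never negative; the build was mm10, per the submitters' processing notes. The sources used here do not name the aligner, the counter, the annotation or the scaling method. A further 3 value columns belong to no sample and were not used. All values were whole multiples of what 1 read is worth (100% within 0.001 reads), which gave the reads of each library. Genes were grouped by name, with members and lists chosen with earlier results of these data known. Of the 69 further pathway genes found, up to 3 per pathway and direction with the smallest adjusted p are named, except 1 not reported here; every library is shown for regulated or branch-point enzymes and for the 3 largest rises and falls per pathway.

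Values were log2-transformed with a pseudocount of 1 and tested with limma 3.58.1 (R 4.3.3, trend and robust) over 16265 genes with a value of at least 1 in at least 3 libraries. The model was tested on simulated data in which few genes changed and the spread was the same in all libraries. Neither holds here, so that test does not bear on the calls. As a signal derived from recovered reads, the table was also tested with edgeR 4.0.16 and DESeq2 1.42.0. Further alternatives changed the pseudocount to 0.1 or 10, dropped the filter or raised it to 10, scaled libraries in 2 other ways, added a replicate block, turned off limma's trend and robust options, or left out each library. Shares within enzyme families used the longest GENCODE M21 transcript; 35 gene identifiers matched that release with their version and 51948 (91.3%) without it. A value of 0 in all libraries of a group was set to a floor of 3 reads over the group. Reads carry no molecular identifiers, so intervals and floors cover counting error only.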

Additional observations from a re-analysis of the deposited data

How the results depend on the processing

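Of the 38 genes that passed, 30 kept their direction and call under all 16 other fits. Scaling to equal total reads moved most. The pentose phosphate genes called higher became 2 and the TCA genes called lower 3. Median log2 changes became 0.98 for glycolysis, -0.45 for pentose phosphate and 0.64 for TCA genes, and Idh3g (0.17) and Mdh2 (0.29) reversed. The cause was not tested. The glycolysis median was 0.24 with no filter and 0.67 with a filter of 10 in 3 libraries, which test more and fewer genes. Leaving out each library gave 0 to 1 pentose phosphate genes called higher, and medians of 0.42 to 0.60 for glycolysis, -1.07 to -0.84 for pentose phosphate and -0.024 to 0.15 for TCA genes. Without transcript length, differences of shares in percentage points were -2.93 for Hk2, 8.57 for Hk3, -66.8 for Pfkfb4, -0.103 for Aldoc and 3.94 for Suclg2. The share of all counts differed by 0.512 points for glycolysis without Pygl and 0.0292 for TCA without Acod1, both alternatives chosen after seeing the data. Over all tested genes edgeR called 5489 higher and 5909 lower, DESeq2 5138 higher and 5541 lower, and the limma test 5709 and 5873.

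Same-numbered DKK1 and control libraries did not deviate together (correlations of -0.01 to 0.02). Counting noise enters these deviations and the sources used here name no pairs, so this does not settle whether the numbers pair them. With a replicate block 5630 genes were higher and 5817 lower, and Idh3g (adjusted p = 0.0698) and Suclg2 (adjusted p = 0.0653) lost their calls. Depth limits Ldhb, Pdk4, Pfkm, Idh2 and Suclg2, where changes were not detectable or rest on few reads.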

Other observations

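Among the further genes listed around pyruvate dehydrogenase, 2 are given here because of their values, which were seen before they were chosen. The kinase gene Pdk2 had 0 reads in DKK1 libraries and 41 in control libraries, at least 14.5-fold lower against a floor of 3 reads over the group. The phosphatase gene Pdp2, whose product switches the complex on again, averaged 54.0 in DKK1 libraries and 3.52 in control libraries, DKK1 lying above control in each library.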
